A study of Mus musculus with 16 samples.

Results

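Genes that mark radial glia and the astrocytes that arise from them were followed in the fetal mouse brain, namely Sox2, Sox9, Nes, Vim, Fabp7, Slc1a3, Prom1, Ednrb, Aldoc and Hopx. They were taken by gene symbol from the table of each library, 10 of the 16250 symbols listed in any library, and all 10 were listed in every one of the 16 libraries. RNA came from hippocampus under an enriched environment (EE, replicates 1 to 3), hippocampus under standard habitation (SH, replicates 1 to 3), cortex EE (replicates 1 to 5) and cortex SH (replicates 1 to 5). Every fetus was wild type (WT) and of embryonic day 18.5, and the series title says that the enrichment was prenatal. Enrichment in general means housing with more space, objects or company. Levels are in FPKM, a fragment count divided by transcript length and by library size, so that levels of different genes can be set side by side. The labels name neither fetuses nor litters, and the p-values therefore measure only the spread between libraries, part of which may be technical.

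Radial glia are the stem cells of the embryonic forebrain. Their cell bodies lie at the ventricle, they divide there to give neurons directly or through intermediate progenitors, and late in gestation many turn to making astrocytes. In the hippocampus a further pool of such progenitors moves away from the ventricle to build the dentate gyrus around birth, and its descendants persist as adult neural stem cells. In bulk tissue, a lower level from fewer cells of a type and one from less RNA per cell cannot be told apart.

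Recovered reads per library, worked back from the steps of the FPKM values, ranged from 15726076 to 20579727 in hippocampus, from 15080188 to 20263831 in cortex replicates 1 to 3 and from 11431881 to 12147404 in cortex replicates 4 and 5. Each of the 10 genes had at least 127 reads in every library (the lowest was Hopx), and Fabp7 reached 24143. The tissue names were checked with marker genes. Of 9 hippocampal markers tested 8 were higher in hippocampus and none lower, among them Prox1, which marks dentate granule neurons, at 5.67 to 21.5 FPKM in hippocampus against 1.57 to 3.08 FPKM in cortex. All 8 interneuron markers were lower in hippocampus. Cortex SH replicate 3 stood apart, with a summed FPKM of 511438 against 339726 to 396658 in the other 15 libraries. Hippocampus EE replicates 1 and 2 and SH replicate 1 stood apart by RNA of the choroid plexus, the tissue that secretes cerebrospinal fluid beside the hippocampus. Ttr, its most abundant transcript, read 4989, 10299.8 and 16656 FPKM in those libraries, against 33.6 to 144 FPKM in the other 3 hippocampal libraries.

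The order of the levels was much the same in both tissues. Fabp7 was highest, at 1032 ± 169.8 FPKM in hippocampus (SD, n = 6) and 891 ± 234 FPKM in cortex (SD, n = 10), followed by Vim, Aldoc and Slc1a3. The next place was held by Hopx in hippocampus (49.4 ± 11.6 FPKM) and by Sox2 in cortex (32.5 ± 3.69 FPKM). Prom1 was lowest in both, at 7.41 ± 1.44 FPKM in hippocampus and 3.12 ± 0.433 FPKM in cortex. Hopx was the gene that changed place: it stood above Sox2 in 4 of 6 hippocampal libraries, whereas in cortex its range of 6.53 to 13.7 FPKM overlapped only that of Sox9 among its neighbours. The ranges of some neighbours overlapped. Those of Aldoc and Slc1a3 did so in both tissues, although Aldoc was above Slc1a3 in 6 of 6 hippocampal and 7 of 10 cortical libraries. Ednrb and Nes overlapped in both tissues too, and Hopx and Sox2 in hippocampus. Fabp7 and Vim did not overlap in either tissue, nor did Sox9 and Prom1.

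**Figure D1:**
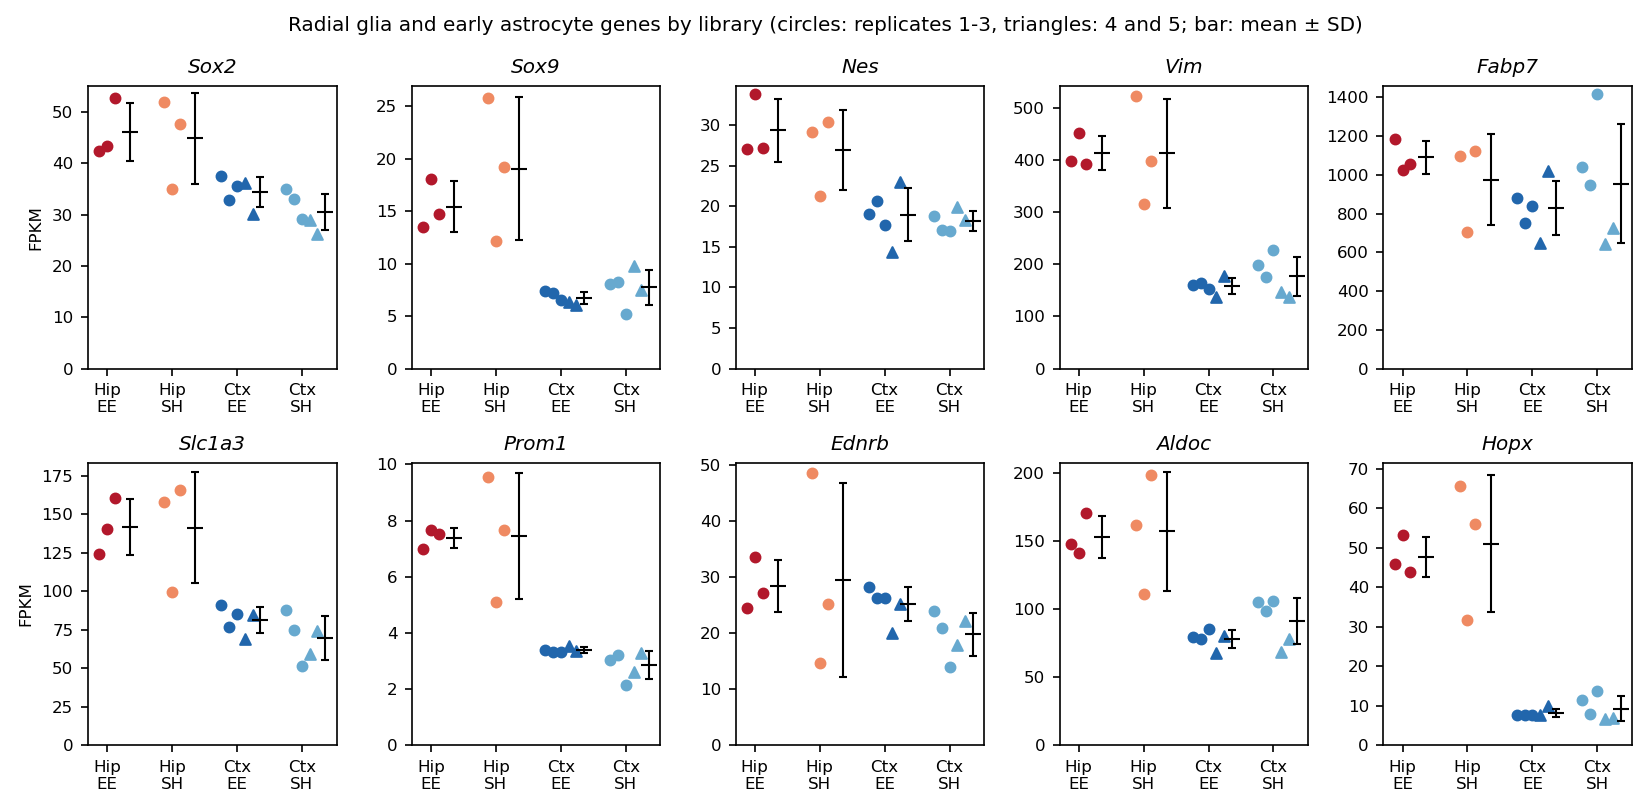
FPKM of each gene in every library, with hippocampus EE and SH left of cortex EE and SH. Circles are replicates 1 to 3, triangles are replicates 4 and 5, and the black mark with its bar is the mean ± SD. Hopx lies at 31.7 to 65.6 FPKM in hippocampus and at 6.53 to 13.7 FPKM in cortex. The points for Fabp7, Ednrb, Sox2 and Nes overlap between tissues, those of Sox2 and Nes only through hippocampus SH replicate 2.

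The comparison of hippocampus with cortex used the 6 libraries of replicates 1 to 3 in each tissue. In all, 8 genes of the 10 were higher in hippocampus, led by Hopx at a log2 difference of 2.29 and followed by Vim, Sox9, Prom1, Slc1a3, Aldoc, Nes and Sox2. Ednrb and Fabp7 did not pass the test, and no gene of the group was lower. The count of 8 of 10 called stands beside 35.4% of the 13158 genes tested that were called at an adjusted p of 0.05 or less (limma), and beside 24.6% that were called as higher in hippocampus. The median log2 difference was 0.80 over the 10 genes and 0.09 over all genes tested. All 6 hippocampal libraries lay above all 6 cortex libraries for 7 of the 10 genes, against 14.9% of all genes tested. Under median-of-ratios scaling the median over all genes moved to -0.01 and the calls over all genes split into 2289 higher and 2108 lower, where the values as deposited gave 3233 higher and 1428 lower; the same 8 genes of the group were called higher. With SH libraries alone, 3 per tissue, 2 of the 10 were still called (Hopx and Prom1), beside 518 of 13179 genes tested. The adjusted p-values (limma) of the other 6 ran from 0.0519 to 0.174 at log2 differences of 0.44 to 1.26. With EE libraries alone, Fabp7 was called in addition to the same 8, at a log2 difference of 0.40 (limma, adjusted p = 0.0337). In that fit 4807 of 13094 genes tested were called.

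**Figure D2:**
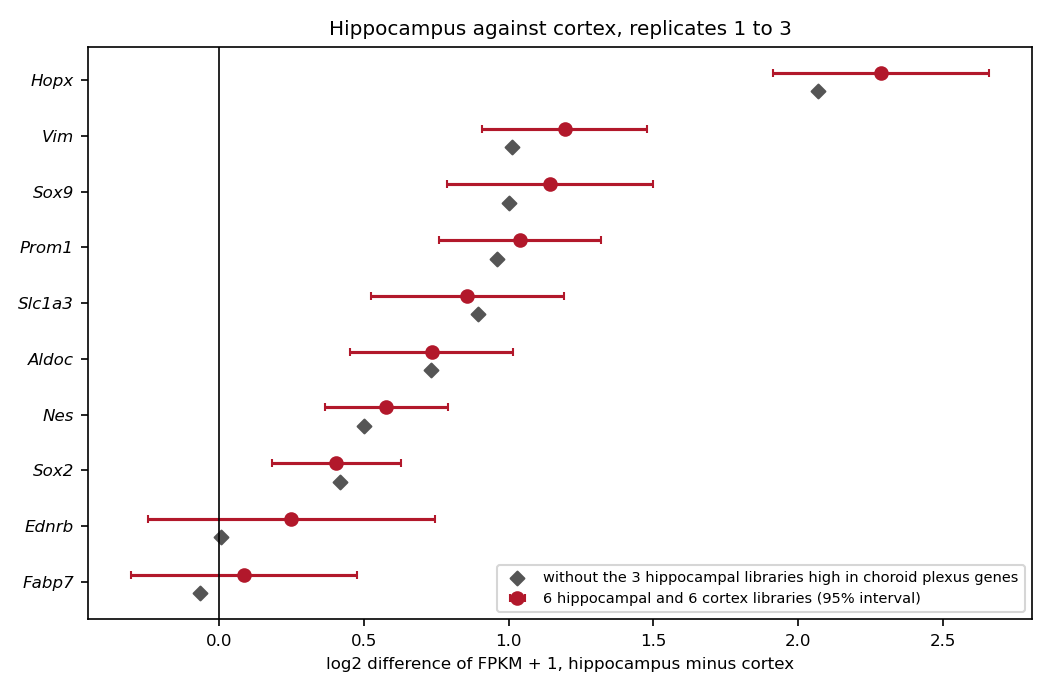
Fitted log2 difference of FPKM + 1, hippocampus minus cortex, for each gene. Circles with bars are estimates and 95% intervals from 6 hippocampal and 6 cortex libraries; diamonds are estimates without the 3 hippocampal libraries high in choroid plexus genes. The intervals of Ednrb and Fabp7 span 0, and the other 8 lie above it.

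Hopx differed most. It encodes a small homeodomain protein that does not bind DNA, and it marks stem cells of the dentate gyrus in the adult mouse. Hopx measured 45.9, 53.4 and 43.7 FPKM in hippocampus EE and 65.6, 31.7 and 55.9 FPKM in hippocampus SH, against 7.60, 7.71 and 7.66 FPKM in cortex EE and 11.3, 7.93 and 13.7 FPKM in cortex SH. The lowest hippocampal library was thus above the highest cortex library. The log2 difference was 2.29 ± 0.17 (SE; limma, adjusted p = 2.22e-06), and it was 2.07 without the 3 libraries high in choroid plexus genes.

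Among the transcription factors, Sox9, which promotes the gliogenic switch of neural progenitors, differed more than Sox2, which maintains the progenitor state. Sox9 measured 13.4, 18.1 and 14.7 FPKM in hippocampus EE and 25.8, 12.1 and 19.2 FPKM in hippocampus SH, against 7.39, 7.23 and 6.53 FPKM in cortex EE and 8.01, 8.23 and 5.18 FPKM in cortex SH. The tissues did not overlap, with a log2 difference of 1.14 ± 0.16 (SE; limma, adjusted p = 0.000263). Sox2 measured 42.4, 43.4 and 52.6 FPKM in hippocampus EE and 51.9, 35.0 and 47.7 FPKM in hippocampus SH, against 37.5, 32.9 and 35.6 FPKM in cortex EE and 35.0, 33.1 and 29.2 FPKM in cortex SH. Hippocampus SH replicate 2 fell inside the cortex range and the other 5 hippocampal libraries lay above it. The log2 difference of Sox2 was 0.41 ± 0.10 (SE; limma, adjusted p = 0.00903), the smallest of the 8 that passed.

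The intermediate filament genes were both higher in hippocampus. Vim, which encodes vimentin, a filament protein of radial glia that endothelial and meningeal cells also make, measured 398, 451 and 392 FPKM in hippocampus EE and 522, 316 and 399 FPKM in hippocampus SH. Its levels were 161, 164 and 152 FPKM in cortex EE and 199, 175 and 227 FPKM in cortex SH. The tissues did not overlap, and the log2 difference was 1.19 ± 0.13 (SE; limma, adjusted p = 3.72e-05). Nes, which encodes nestin, the classical filament marker of neural progenitors, measured 27.1, 33.9 and 27.2 FPKM in hippocampus EE and 29.1, 21.3 and 30.4 FPKM in hippocampus SH. Cortex EE gave 19.1, 20.7 and 17.7 FPKM and cortex SH gave 18.8, 17.1 and 17.0 FPKM. Nes did not overlap between tissues over replicates 1 to 3, but hippocampus SH replicate 2 lay only just above the highest cortex library, and below the 23.1 FPKM of cortex EE replicate 5. The log2 difference of Nes was 0.58 ± 0.10 (SE; limma, adjusted p = 0.000778).

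Of the membrane proteins, Prom1 and Slc1a3 were higher in hippocampus and Ednrb did not pass. Prom1, which encodes prominin on the apical protrusions of neural progenitors, measured 6.97, 7.66 and 7.52 FPKM in hippocampus EE and 9.56, 5.08 and 7.67 FPKM in hippocampus SH, against 3.39, 3.31 and 3.33 FPKM in cortex EE and 3.04, 3.20 and 2.13 FPKM in cortex SH. The 2 ranges were well apart (log2 difference 1.04 ± 0.13 SE; limma, adjusted p = 8.55e-05). Slc1a3, which encodes the glutamate transporter GLAST, measured 124, 140.5 and 161 FPKM in hippocampus EE and 158, 99.7 and 166 FPKM in hippocampus SH. Cortex EE held 90.8, 76.6 and 85.0 FPKM and cortex SH 87.9, 75.0 and 51.3 FPKM. The tissues did not overlap for Slc1a3 either (log2 difference 0.86 ± 0.15 SE; limma, adjusted p = 0.00115).

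Ednrb, the endothelin B receptor, which endothelial cells express as well as glia, varied most among the hippocampal libraries, 3.31-fold between the highest and the lowest. It measured 24.5, 33.6 and 27.1 FPKM in hippocampus EE and 48.6, 14.7 and 25.1 FPKM in hippocampus SH, against 28.2, 26.2 and 26.3 FPKM in cortex EE and 23.9, 20.98 and 14.0 FPKM in cortex SH. Only 2 of 6 hippocampal libraries lay above every cortex library, both of them high in choroid plexus genes. The log2 difference was 0.25 ± 0.23 (SE; 95% interval -0.25 to 0.75; limma, adjusted p = 0.424), and it was 0.01 without the 3 libraries high in choroid plexus genes and 0.55 without the other 3 (adjusted p = 0.122).

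The metabolic and lipid-binding genes parted. Aldoc, which encodes the brain form of aldolase and is an astrocyte enzyme in the adult, measured 148, 141 and 171 FPKM in hippocampus EE and 162, 111 and 199 FPKM in hippocampus SH, against 79.9, 78.0 and 85.6 FPKM in cortex EE and 105, 99.0 and 106 FPKM in cortex SH. The ranges were apart by a small margin (log2 difference 0.73 ± 0.13 SE; limma, adjusted p = 0.00103). Fabp7, which encodes the brain lipid-binding protein of radial glia, measured 1185, 1026 and 1057 FPKM in hippocampus EE and 1098, 704 and 1120.5 FPKM in hippocampus SH. Cortex EE gave 881, 749 and 839 FPKM and cortex SH 1041, 947 and 1419.6 FPKM. By FPKM, no hippocampal library was above cortex SH replicate 3, the highest of all 12 and the library with the largest summed FPKM. Fabp7 divided by the summed FPKM of its library gave another order. Every hippocampal library except SH replicate 2 then lay above all cortex libraries of replicates 1 to 3, EE replicate 2 only just. Hippocampus SH replicate 2 lay below all of those cortex libraries. The divided values were not tested. The log2 difference of Fabp7 was 0.09 ± 0.18 (SE; 95% interval -0.30 to 0.48; limma, adjusted p = 0.738). It was 0.20 without cortex SH replicate 3 (adjusted p = 0.281), -0.03 under median-of-ratios scaling, -0.06 without the 3 hippocampal libraries high in choroid plexus genes, and 0.33 after quantile normalization, where it was called (adjusted p = 0.0367).

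A ratio to Sox2 within each library, a denominator chosen for this comparison, shows how unequally the genes differed. Hopx stood at 0.831 to 1.26 times Sox2 in hippocampus and at 0.203 to 0.468 times Sox2 in cortex replicates 1 to 3. Prom1 stood at 0.143 to 0.184 times Sox2 in hippocampus and 0.0730 to 0.101 in cortex, and Sox9 at 0.279 to 0.497 in hippocampus and 0.177 to 0.248 in cortex, again without overlap. For Slc1a3 the ratios were 2.85 to 3.48 in hippocampus and 1.76 to 2.52 in cortex. Those of Nes, Vim, Aldoc, Ednrb and Fabp7 overlapped between tissues. The ratio of Fabp7 to Sox2 was 20.1 to 28.0 in hippocampus and 22.8 to 48.6 in cortex. These ratios are descriptions and were not tested.

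The bases just upstream of 3 of these genes are printed. They are the gene that differed most (Hopx), a transporter gene that also differed (Slc1a3), and the most abundant gene, which did not pass (Fabp7). The stretches come from RefSeq promoter windows on GRCm38.p6, 250 bases before each RefSeq start, of which only the part before the GENCODE start is shown. Windows were held for 9 of the 10 genes, and Sox9 is the other. Hopx had a further window at chr5:77095268-77095517, inside the gene, which is not printed. Which start these tissues use was not tested. Capitals mark TGGGAA, the core bound by RBPJ of the Notch pathway, ACAAAG or ACAATG, bound by SOX proteins, and TATAAA, each searched on both strands. Hopx lies on the minus strand at chr5:77115124-77115373, Slc1a3 on the minus strand at chr15:8710808-8711057, and Fabp7 on the plus strand at chr10:57784673-57784880.
Hopx: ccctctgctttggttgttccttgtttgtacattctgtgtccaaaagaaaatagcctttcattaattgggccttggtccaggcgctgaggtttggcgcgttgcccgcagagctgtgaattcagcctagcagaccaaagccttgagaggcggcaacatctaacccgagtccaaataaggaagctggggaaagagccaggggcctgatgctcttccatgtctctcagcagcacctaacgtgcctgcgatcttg
Slc1a3: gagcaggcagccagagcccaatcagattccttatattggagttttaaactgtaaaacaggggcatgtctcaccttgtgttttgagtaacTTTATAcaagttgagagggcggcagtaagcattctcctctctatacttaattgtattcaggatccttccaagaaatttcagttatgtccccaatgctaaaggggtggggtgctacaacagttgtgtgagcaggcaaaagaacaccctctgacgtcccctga
Fabp7: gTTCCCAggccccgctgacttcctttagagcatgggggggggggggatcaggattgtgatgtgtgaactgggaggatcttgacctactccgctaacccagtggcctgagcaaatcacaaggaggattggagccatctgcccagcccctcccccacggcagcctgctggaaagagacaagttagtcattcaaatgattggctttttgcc
The Hopx stretch holds none of these letters, the Slc1a3 stretch holds 1 TATA match on the opposite strand, and the Fabp7 stretch holds 1 RBPJ match at its far end. Of 32851 RefSeq windows of 250 bases in the mouse, 21.6% hold TGGGAA, 16.5% ACAAAG, 10.7% ACAATG and 12.4% TATAAA before the start. A match is a description of the letters only.

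All 10 genes are protein-coding and lie on 7 chromosomes of mm10 (GENCODE M21). Sox2 lies on chromosome 3 at 34650405 to 34652461 inside the span of the long noncoding Sox2ot, with which it shares no exonic base, and Nes lies on the same chromosome at 87971078 to 87980451. Prom1 (chromosome 5, 43993620 to 44102032) shares 424 exonic bases with the antisense transcript Gm16401, and Hopx (chromosome 5, 77086988 to 77115121) shares 412 with the antisense transcript Hopxos. Whether reads were counted by strand is not given in the sources used here, so reads of those shared bases cannot be assigned to either gene. The other 8 share no exonic base with an annotated neighbour. Aldoc and Sox9 lie on chromosome 11, and Vim, Fabp7, Ednrb and Slc1a3 on chromosomes 2, 10, 14 and 15.

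Other genes of the same cells were counted from fixed lists. Of 35 further radial glia and neural stem cell genes, 25 were higher in hippocampus and 1 lower, with a median log2 difference of 0.68. Emx2, a transcription factor of the medial pallium, averaged 20.4 ± 2.62 FPKM in hippocampus and 4.81 ± 0.232 FPKM in cortex (SD, n = 6 each; log2 difference 1.87; limma, adjusted p = 1.6e-07), and Lhx2, which patterns the same tissue, averaged 67.6 ± 6.87 FPKM in hippocampus and 22.3 ± 1.36 FPKM in cortex (log2 difference 1.55). Tspan12 and Psat1, an enzyme of serine synthesis, followed with log2 differences of 0.78 and 0.68. Of 35 further astrocyte genes, 15 were higher and 5 lower, with a median of 0.43. Gfap, the astrocyte filament gene, averaged 77.4 ± 15.1 FPKM in hippocampus and 18.5 ± 3.42 FPKM in cortex (SD, n = 6 each; log2 difference 2.001; limma, adjusted p = 1.16e-06). The NFI transcription factors of astrocyte differentiation were called as well. Nfix had a log2 difference of 1.49, Nfia 1.47 and Nfib 1.41. The astrocyte list did not move as a whole, with 23 differences positive and 12 negative. Aldh1l1 averaged 30.3 ± 7.47 FPKM in hippocampus and 41.5 ± 7.43 FPKM in cortex (SD, n = 6 each). Aqp4 averaged 7.54 ± 1.47 FPKM in hippocampus and 7.26 ± 2.17 FPKM in cortex.

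Genes of the neuronal progeny and of division moved too. Of 14 intermediate progenitor and newborn neuron genes tested, 11 were higher in hippocampus and none lower (median 0.998), with Eomes at 25.6 ± 4.599 FPKM in hippocampus and 5.496 ± 1.11 FPKM in cortex (SD, n = 6 each) and Neurog2, Neurod1 and Insm1 at log2 differences of 1.88, 2.27 and 1.13. Of 25 cell division genes, 23 were higher and none lower (median 0.71), led by the replication helicase subunit gene Mcm2 at 14.5 ± 2.50 FPKM in hippocampus and 7.91 ± 0.968 FPKM in cortex (SD, n = 6 each). Of 14 postmitotic neuron genes none was higher and 8 were lower (median -0.39), among them the growth cone gene Gap43 at a log2 difference of -0.86. Nothing particular to any list follows from these counts, since no test compared lists.

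Markers of other cell types that make some of these transcripts did not all move one way. Of 14 choroid plexus and ependyma markers tested, 4 were higher in hippocampus and none lower, and their summed level ran from 164 to 17905 FPKM in hippocampus and from 181 to 649 FPKM in cortex replicates 1 to 3. None of the defining choroid plexus markers was at 0, but Kcnj13 came near it, at 0.0169 FPKM in its lowest hippocampal library. It averaged 0.322 ± 0.339 FPKM in the 3 hippocampal libraries low in choroid plexus genes (SD). In cortex replicates 1 to 3 it averaged 1.41 ± 0.582 FPKM. As background, choroid plexus epithelium is known to make Sox9, Vim and Prom1 transcripts. Without the 3 libraries with summed levels of 5494 to 17905 FPKM, the same 8 genes were called, with log2 differences of 1.002 for Sox9, 1.01 for Vim and 0.96 for Prom1. Endothelial markers were higher for 2 of 14 and lower for none (summed level 103 to 173 FPKM in hippocampus, 105 to 164 FPKM in cortex), and pericyte and smooth muscle markers were higher for 1 and lower for 2 of 12 (82.7 to 144 FPKM in hippocampus, 106 to 182 FPKM in cortex). Meningeal markers were lower for 8 of 15 and higher for none (71.0 to 301 FPKM in hippocampus, 258 to 395 FPKM in cortex). Microglial markers were lower for 3 of 15, oligodendrocyte lineage markers lower for 3 and higher for 1 of 11, erythroid markers lower for 1 of 5, and cortical projection neuron markers lower for 4 and higher for 1 of 8.

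For each gene the most similar profile was sought among 8947 genes with a mean of at least 5 FPKM, as the smallest root-mean-square difference of centred log2(FPKM + 1) over the 12 libraries. Hopx was nearest to Gfap (0.230, where the profile of Hopx itself had a root-mean-square size of 1.19), Vim to Cd9, the gene of a tetraspanin (0.109), and Aldoc to Cbs, a gene of the fixed astrocyte list (0.107). Sox9 was nearest to Tulp3 (0.141), Prom1 to Jam2 (0.108), Slc1a3 to Cav2 (0.0882), Sox2 to Abhd4 (0.0952) and Nes to Aif1l (0.106). Fabp7 was nearest to Lamtor5 (0.0761), which averaged 44.3 ± 5.74 FPKM in hippocampus and 43.9 ± 10.8 FPKM in cortex, and Ednrb to Rbms1 (0.140). The 12 libraries come from 2 tissues, so a shared tissue difference enters each likeness. These values describe the profiles and were not tested.

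Libraries of 1 tissue differed across the whole group of genes. Hippocampus SH replicate 2 was the lowest of the 6 hippocampal libraries for 10 of 10 genes, against 25.997% of all genes that were lowest there. Its deviations from the mean of the 6 ran from -0.85 (Ednrb) to -0.36 (Sox2) on the log2 scale. Hippocampus SH replicate 1 was the highest for 5 of 10 (Sox9, Vim, Prom1, Ednrb and Hopx), against 29.0% of all genes. Hippocampus SH replicate 2 also had the lowest choroid plexus sum (164 FPKM) and SH replicate 1 the highest (17905 FPKM). In cortex, SH replicate 3 was the highest of replicates 1 to 3 for 4 genes (Fabp7, Hopx, Vim and Aldoc) and the lowest for the other 6, against 36.0% of all genes highest and 44.7% lowest there. By the transcript lengths recovered from the FPKM steps, the 3 shortest of the 10 (Fabp7, Hopx and Vim) were among its highest and the 5 longest (Nes, Prom1, Ednrb, Slc1a3 and Sox9) all among its lowest. By GENCODE exon length the order differs. Vim, at 4743 bases, is there longer than Sox2 (2057), Aldoc (3263), Sox9 (4135) and Ednrb (4266). The places in cortex SH replicate 3 are by FPKM, and that library had the largest summed FPKM. After division by the summed FPKM of each library, only Fabp7 stayed highest in cortex SH replicate 3. Hopx and Vim were then highest in cortex SH replicate 1, and Aldoc was lowest in cortex SH replicate 3. The part that length or tissue makeup has in these deviations was not tested.

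**Figure D3:**
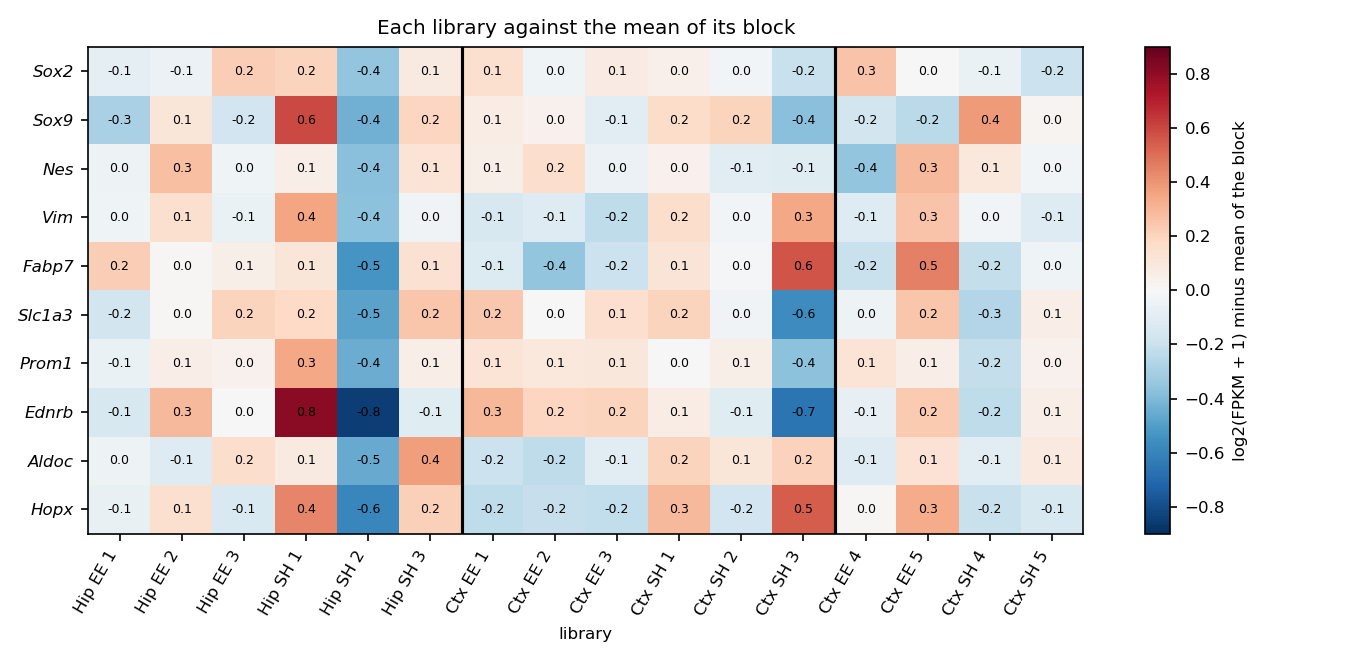
Deviation of log2(FPKM + 1) of each gene in each library from the mean of its block: the 6 hippocampal libraries, cortex replicates 1 to 3, and cortex replicates 4 and 5, separated by lines. Red is above and blue below the block mean. The column of hippocampus SH replicate 2 is blue in all 10 rows, and cortex SH replicate 3 is red in 4 rows and blue in 6.

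Prenatal enrichment was compared with standard habitation in each tissue, the question the study design poses. In hippocampus none of the 10 genes was called (limma, adjusted p = 0.9996 for each), beside 0% of 13344 genes tested, with 503 genes at an unadjusted p under 0.05 and 0 called by limma-voom. The fitted log2 differences lay between -0.24 (Sox9) and 0.19 (Fabp7), 7 of them positive and 3 negative. Sox9 averaged 15.4 ± 2.41 FPKM in hippocampus EE and 19.0 ± 6.84 FPKM in hippocampus SH (SD, n = 3 each), and Fabp7 1089.6 ± 84.1 FPKM in EE and 974 ± 234 FPKM in SH. For every gene of the group the values of EE and SH overlapped. The SH libraries spread more widely than the EE libraries: Ednrb, for example, averaged 28.4 ± 4.67 FPKM in EE and 29.5 ± 17.4 FPKM in SH. The signs turned with single SH libraries. Without SH replicate 2 none of the 10 differences was positive, and without SH replicate 1 all 10 were. The intervals were wide, from -0.80 to 0.99 for Ednrb and from -0.33 to 0.44 for Sox2, so differences of that size were not detectable with 3 libraries a group.

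In cortex, with 5 libraries a group and a term for the set of replicates (1 to 3, or 4 and 5), none of the 10 genes was called either, beside 0.00798% of 12539 genes (1 gene, not of this group; 1 by limma-voom; 934 genes at an unadjusted p under 0.05). The adjusted p-values of the 10 ran from 0.633 to 0.947. Ednrb came nearest. It measured 28.2, 26.2, 26.3, 20.1 and 25.1 FPKM in cortex EE, against 23.9, 20.98, 14.0, 17.9 and 22.1 FPKM in cortex SH (replicates 1 to 5), and each EE library lay above the SH mean of its own set. The log2 difference was 0.35 ± 0.15 (SE; 95% interval 0.02 to 0.67; unadjusted p = 0.0391 and adjusted p = 0.633, limma). Cortex SH replicate 3 was the lowest library, and without it the log2 difference was 0.21 ± 0.097 (SE; limma, adjusted p = 0.436). Prom1, Sox2 and Slc1a3 likewise had 5 of 5 EE libraries above the SH mean of their set, at log2 differences of 0.20, 0.17 and 0.24 (limma, adjusted p = 0.697 for the first pair and 0.746 for Slc1a3). The share of all genes with 5 of 5 EE libraries above was not counted, so nothing particular to these genes follows. Cortex SH replicate 3 was the lowest of replicates 1 to 3 for Prom1, Sox2 and Slc1a3 too. Without it the log2 differences were 0.12 for Prom1, 0.14 for Sox2 and 0.12 for Slc1a3. Prom1 in replicates 4 and 5 measured 3.55 and 3.35 FPKM in EE against 2.59 and 3.29 FPKM in SH, and Sox2 36.1 and 30.2 FPKM in EE against 28.9 and 26.2 FPKM in SH.

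The other cortex differences were negative or near 0 and changed between sets. Aldoc averaged 78.4 ± 6.56 FPKM in cortex EE and 91.3 ± 16.9 FPKM in cortex SH (SD, n = 5 each; log2 difference -0.20; limma, adjusted p = 0.684). Within replicates 1 to 3 its log2 difference was -0.34, and within replicates 4 and 5 it was 0.01. Hopx had -0.44 within replicates 1 to 3 and 0.34 within replicates 4 and 5, where it measured 7.69 and 9.87 FPKM in EE against 6.53 and 6.82 FPKM in SH. For Fabp7 it was -0.45 within replicates 1 to 3 and 0.26 within replicates 4 and 5, and for Vim -0.32 within replicates 1 to 3 and 0.14 within replicates 4 and 5. These 4 genes, negative within replicates 1 to 3, are the 4 for which SH replicate 3 was the highest of those libraries by FPKM. Each SH library of replicates 1 to 3 lay above every EE library of that set for these 4 genes. Prom1 and Ednrb did not overlap there either, with EE above SH. After division by the summed FPKM of each library, only Fabp7 of these 4 genes kept every SH library above every EE library. The share of all genes without overlap was not counted. The fitted log2 differences over all 5 replicates were -0.16 for Fabp7 and -0.14 for Vim, and without SH replicate 3 they were -0.032 for Fabp7, -0.060 for Vim, -0.17 for Aldoc and 0.0043 for Hopx. Fabp7 in replicates 4 and 5 measured 649 and 1020.2 FPKM in EE against 641 and 723 FPKM in SH. Sox9 had 0.01 within replicates 1 to 3 and -0.41 within replicates 4 and 5, with 6.38 and 6.02 FPKM in EE against 9.81 and 7.44 FPKM in SH. Nes had a fitted log2 difference of 0.04, and 14.3 and 23.1 FPKM in EE against 19.9 and 18.3 FPKM in SH in replicates 4 and 5.

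**Figure D4:**
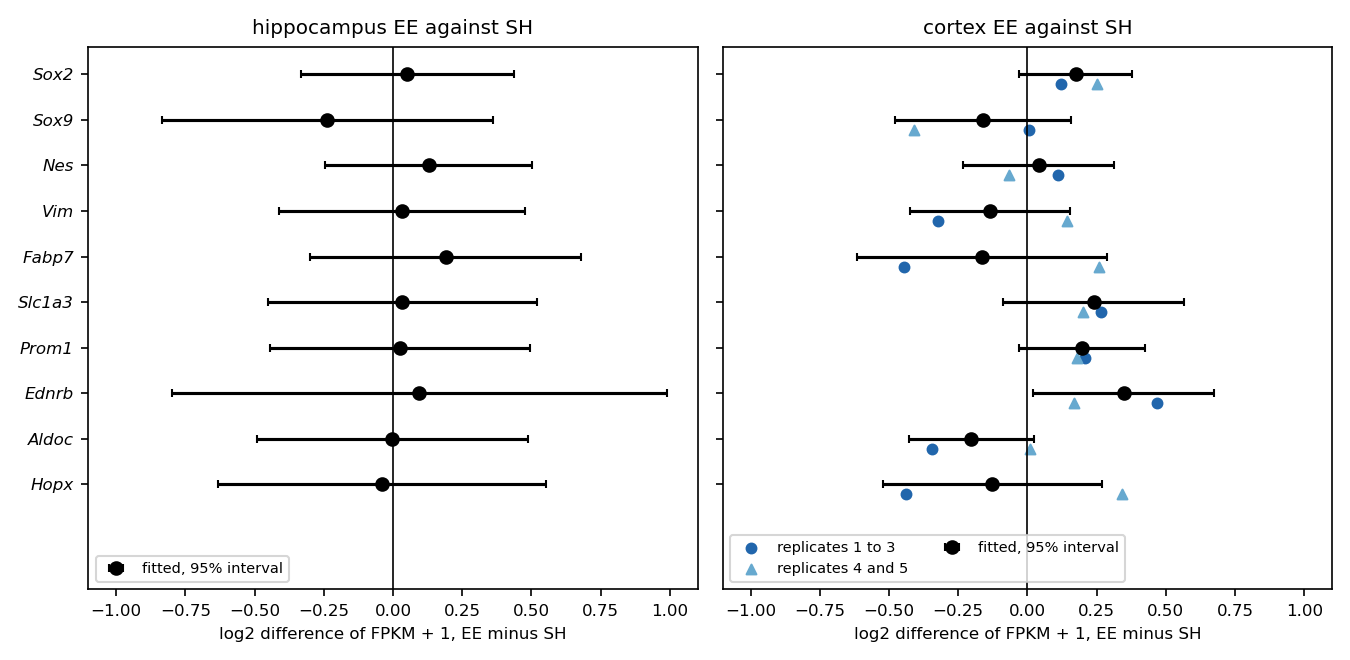
Log2 difference of FPKM + 1, EE minus SH, in hippocampus (left) and cortex (right). Black circles with bars are fitted estimates with 95% intervals; in cortex, blue circles and light triangles are the differences within replicates 1 to 3 and within replicates 4 and 5. Only the interval of Ednrb in cortex, 0.02 to 0.67, leaves out 0, without adjustment over genes.

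The EE effect was also compared between tissues over replicates 1 to 3, as the effect in hippocampus minus that in cortex. None of the 10 genes passed, beside 0% of 13158 genes (limma; 990 genes at an unadjusted p under 0.05, and 0 called by limma-voom). The smallest p among the 10 belonged to Fabp7, with a difference of effects of 0.64 ± 0.32 on the log2 scale (SE; unadjusted p = 0.0676 and adjusted p = 0.495). This rests on an EE minus SH difference of 0.19 in hippocampus and -0.45 in cortex replicates 1 to 3. The difference of effects was 0.42 without hippocampus SH replicate 2, 0.46 without cortex SH replicate 3 and -0.033 after quantile normalization. The fixed lists also held no gene called in either housing comparison. Among them, Zfp36l1, an RNA-binding protein gene, averaged 15.1 ± 1.17 FPKM in cortex EE and 12.7 ± 1.25 FPKM in cortex SH (SD, n = 5 each; limma, adjusted p = 0.609). Aurka, a mitotic kinase gene, averaged 3.30 ± 0.573 FPKM in cortex EE and 4.82 ± 0.305 FPKM in cortex SH (SD, n = 5 each; limma, adjusted p = 0.321).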

How the data were processed

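The authors deposited 1 table of FPKM values per library, the unit being given per the file headers, with values per gene symbol and no counts. Trizol was used to harvest RNA and a NEBNext Ultra kit to build the libraries, per the labels' protocols. Tools named in the submitters' processing notes are StringTie 1.3.4d, HISAT2 2.0.4, cutadapt 1.9, DESeq2 and edgeR, with the build mm10; their roles, the annotation and the filter on listed genes are not given in the sources used here. A gene not listed was treated as missing, and 22 symbols turned into dates were not named.

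Two-sided tests used limma 3.58.1 (lmFit and eBayes with trend) in R 4.3.3 on log2(FPKM + 1), over all genes that every library compared lists and whose mean FPKM is 1 or more, with Benjamini-Hochberg adjustment over all of them and a threshold of 0.05. Log2 differences on this scale understate the change of low genes. Treatment was a covariate between tissues, the replicate set (1 to 3, or 4 and 5) was one in cortex EE against SH, and hippocampus EE against SH had none. Whole reads, within 0.003 of a read, could be worked back from the FPKM steps for 99.59 to 99.9% of genes in a block. These reads entered limma-voom. The genes recovered held 88.04 to 89.07% of the summed FPKM of a block, so the read totals leave out the rest. The recovered depths are known up to a common factor per block. Scripts were tested on simulated data.

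All 10 genes are named, with up to 4 genes of smallest p per list between tissues and up to 2 per housing comparison, and the nearest profile of each gene. A gene that this rule selects is not reported here. Prox1, Ttr, Kcnj13, Aldh1l1 and Aqp4 were named after their values were seen. The genes and lists were chosen with earlier results of these data known. Alternatives varied scaling, filter, pseudocount, variance model, transcript length trend, replicate block and libraries; limma-voom, leaving out libraries by choroid plexus genes, and every alternative of the comparison of EE effects were added after the data were seen. Annotation came from GENCODE M21.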

Additional observations from a re-analysis of the deposited data

Results flagged for a closer look

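Hopx in cortex EE had 1 library far from the others: replicate 5 read 9.87 FPKM, against 7.60 to 7.71 FPKM in the other 4 EE libraries. The same library was the highest of cortex replicates 4 and 5 for 7 of the 10 genes, against 26.7% of all genes. Among the 20 groups of 5 libraries examined, chance alone would set apart about 1.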

How the results depend on the processing

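Between hippocampus and cortex the same 8 of 10 genes were called in 23 of 26 alternatives, among them each library left out in turn; quantile normalization and EE libraries alone added Fabp7, and SH libraries alone left 2. Over all genes, 4661 of 13158 genes tested were called. The calls became 2744 of 8974 where the mean FPKM had to reach 5, and 518 of 13179 with SH libraries alone. They were 2131 of 12970 without the 3 hippocampal libraries high in choroid plexus genes. Fabp7 changed sign at -0.032 (median-of-ratios scaling), -0.23 (SH libraries alone) and -0.065 (without those 3 libraries). In cortex EE against SH the 1 gene called became 3 after quantile normalization, 3 with the trend on transcript length removed, 10 with all 16 libraries in 1 fit, 0 with replicates 1 to 3 alone, 435 with replicates 4 and 5 alone (2 libraries a group), 0 with no term for the set of replicates, and 1 to 3 with 1 library left out, the 3 being without SH replicate 3. In hippocampus EE against SH all 16 libraries in 1 fit gave 1 call. No gene of the group was called in any alternative of the housing comparisons.

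Some uncalled housing differences changed sign. In cortex, Sox2, Slc1a3 and Ednrb kept a positive difference in 24 of 24 alternatives and Prom1 in 23 of 23, whereas replicates 1 to 3 alone gave 0.0058 for Sox9, and replicates 4 and 5 alone gave -0.066 for Nes, 0.14 for Vim, 0.26 for Fabp7, 0.010 for Aldoc and 0.34 for Hopx. In hippocampus, quantile normalization gave -0.066 for Vim, -0.045 for Fabp7 and -0.040 for Slc1a3, and Aldoc had 0.025 under median-of-ratios scaling and 0.0086 by limma-voom. With 1 cortex library left out, Nes ran from -0.044 to 0.16 and Hopx from -0.25 to 0.0043. With 1 hippocampal library left out, Sox2 ran from -0.11 to 0.16, Sox9 from -0.51 to 0.0012, Nes from -0.026 to 0.22, Vim from -0.14 to 0.22, Fabp7 from -0.029 to 0.31, Slc1a3 from -0.20 to 0.17, Prom1 from -0.19 to 0.21, Ednrb from -0.30 to 0.53, Aldoc from -0.23 to 0.18 and Hopx from -0.34 to 0.17.

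Equal replicate numbers did not meet the rule for a pairing, under which each pair's correlation must exceed 0.1. Same-numbered EE and SH libraries had correlated deviations of -0.556 to 0.364 in hippocampus and 0.0892 to 0.406 in cortex. Those of hippocampus and cortex were -0.029 to 0.273. All 5 cortex pairs of EE and SH were positive and 4 were above 0.1. Replicates 4 and 5 share the value 0.135 by construction, because deviations from the mean of 2 libraries mirror each other. With a replicate block, 4357 genes and the same 8 of the group were called between tissues, 1 gene in cortex EE against SH, 0 in hippocampus and 0 for the difference of effects. The causes of these changes were not tested. Each gene of the group had at least 127 recovered reads in every library; the tables give no fragment totals.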
